A study of Sus scrofa with 67 samples.

Results

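The endometrium, the lining of the uterus, was compared between day 12 and day 9 of the oestrous cycle in pigs that were not pregnant. The comparison was defined by its samples: the 3 endometrium libraries of day 12 and the 3 of day 9, with every gene of the count table. They are 6 of the 66 RNA sequencing libraries in that table, while the labels of the series list 67 samples. The study sequenced ovary, oviduct and endometrium from crossbred Landrace × Yorkshire gilts aged 6 to 8 months on 7 days of the cycle, with day 0 as the onset of oestrous behaviour. Per the study's methods, each gilt had gone through normal cycles before sampling, 3 gilts were sampled on each day, and the lining was taken from the mid-horn region of the uterus with the myometrium removed. Both groups are untreated and differ in the day, so everything measured is a contrast between animals at different days and not a course within an animal. The labels do not tie a library to a gilt, so the number of separate gilts behind the libraries of a day could not be checked in the files. Endometrium day 15 and oviduct and ovary day 12 hold 4 libraries each, above the 3 gilts stated for a day. The fits took every library as a separate replicate. The labels list 4 endometrium samples of day 12, and the count table holds 3 of them.

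Around days 9 to 12 of the porcine cycle the corpora lutea secrete progesterone, which acts on the uterine glands and drives the secretion of histotroph, the fluid that would feed an embryo. In a pregnant pig this is when conceptuses elongate, release oestrogen and signal their presence, and the lining stops sending prostaglandin F2 alpha to the ovary. In a cycling animal no conceptus is present, so the values describe the lining as it reaches that window without a signal. Long exposure to progesterone is known to go with loss of the progesterone receptor from the uterine epithelium while stromal cells keep it.

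The table holds 25322 genes by Ensembl identifier, of which 11804 could be paired with a symbol. Total counts were 9826274, 10098430 and 9827243 in day 9 libraries 1, 2 and 3, and 11576127, 9374249 and 11016972 in those of day 12. At these depths 3 counts, taken as the lowest detectable level, correspond to 0.259 to 0.32 CPM, the count scaled to the size of its library, and this limit and all intervals cover counting error only. CPM values were normalised between libraries and were not divided by gene length, so levels are compared between samples and not between genes. The strand mode of the counting was not given, so reads of overlapping genes on opposite strands cannot be separated.

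Markers of the tissue were present on both days. The 7 epithelial markers paired with a symbol summed to 3379, 3109 and 3126 CPM on day 9 and 3128, 2695 and 4973 CPM on day 12, with keratin gene KRT8 giving the most counts. The 6 stromal markers summed to 5362, 6320 and 10470 CPM on day 9 and to 12910, 13970 and 17110 CPM on day 12, most of it from collagen gene COL3A1. Of the other stromal markers DCN, LUM, PDGFRB and VIM overlapped between the days, with log2 fold changes of 0.12, -0.09, 0.01 and 0.65, and PDGFRA did not overlap (0.92, adjusted p 0.0600), so the sum describes COL3A1 more than the stroma as a whole. OVGP1, the oviduct glycoprotein, stayed between 1.75 and 4.27 CPM in the 6 libraries. Smooth muscle markers, which myometrium or vessel walls would bring, summed to 302, 294 and 264 CPM on day 9 and to 292, 375 and 679 CPM on day 12, with day 12 library 3 the highest. The 5 general leucocyte markers gave 114, 110 and 113 CPM on day 9 and 138, 151 and 169.9 CPM on day 12. In whole tissue, fewer cells of a type and less RNA per cell cannot be told apart.

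Libraries of a day differed from each other, and 4 stood apart in some respect. The mean correlation of log2(CPM + 1) across genes, which are not independent replicates, was 0.98 among day 9 libraries, 0.962 among those of day 12 and 0.946 between the days. Day 12 library 2 correlated almost as well with day 9 (0.963) as with its own day (0.964), and its values for the called genes below often lay nearest to day 9. Day 12 library 3 had the lowest correlation with its own day of the 6 libraries (0.956) and the highest sums of endothelial (570 CPM), smooth muscle (679 CPM) and erythrocyte markers (188 CPM). Day 9 library 3 lay nearest to day 12 for many of the same genes. Day 15 library 2, which takes part in the fit through the shared estimate of spread, correlated at 0.973 with day 12 and at 0.916 with the other libraries of its own day. Whether its day label is right could not be tested, so day 15 means and counts below hold under the label as given. Transcripts of the 13 mitochondrial genes took 7.95, 7.05 and 8.13% of counts on day 9 and 2.17, 6.39 and 4.77% on day 12. The part of this difference in the results was not tested.

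Of 15341 genes tested, 737 (4.8%) differed between the days at an adjusted p under 0.05 (quasi-likelihood test of edgeR, Benjamini-Hochberg). On day 12, 373 genes (2.43%) were higher and 364 (2.37%) were lower. The median log2 fold change was 1.24 among the higher genes and -1.53 among the lower genes, against 0.00316 over all genes tested. Only 2 of the higher genes were at 0 on day 9 and 3 of the lower genes at 0 on day 12. Setting these to the lower bound that 3 counts give left both medians as they were, since so few genes could not move them. A difference of at least 3 on the log2 scale was reached by 61 of the higher and 65 of the lower genes. The libraries of the 2 days did not overlap in 362 of the higher and 360 of the lower genes, whereas 25.5% of all genes tested had no overlap. The calls were made on these same libraries, so neither this nor the shares of counts that follow are separate evidence for them. The genes called higher took 2.34, 2.38 and 3.28% of counts in the day 9 libraries and 9.12, 5.32 and 8.61% in those of day 12. Genes called lower went from 6.06, 6.74 and 5.21% of counts to 1.93, 2.58 and 2%.

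The number of calls depended on single libraries. Without day 9 library 1, 2 or 3 the count was 297, 210 or 543, and without day 12 library 1, 2 or 3 it was 445, 1044 or 278. Of the called genes, 63 higher and 118 lower ones kept their call in all 6 of these fits. Where a call is given below as lost without several libraries, each was left out by itself. Without day 15 library 2, an alternative chosen after seeing the data, 1230 genes were called, all 737 among them. Without day 9 library 3 and day 12 library 2 together, also chosen after seeing the data, 728 were called, and 536 of the 737 were shared.

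**Figure D1:**
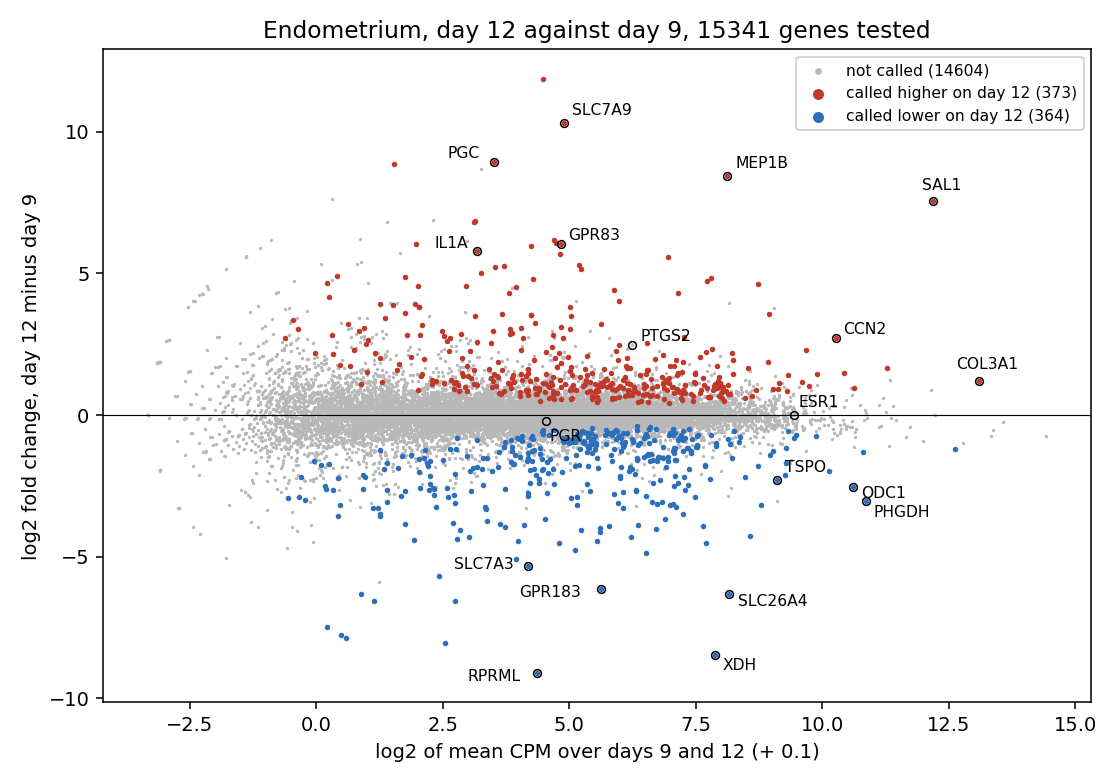
Each point is a gene tested in the endometrium, with the log2 of its mean CPM over days 9 and 12 on the horizontal axis and its log2 fold change, day 12 minus day 9, on the vertical axis. Red points are the 373 genes called higher on day 12 and blue points the 364 called lower, and the labelled genes are described in the text.

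Genes are grouped below by what they encode for ease of reading, and the groups were not tested as such. Some of the called genes that rose encode secreted proteins or proteases. Salivary lipocalin SAL1 (ENSSSCG00000005474), a carrier of small hydrophobic molecules secreted in the pig uterus, had 34.8, 51.6 and 64.1 CPM in day 9 libraries 1, 2 and 3 and 21820, 1487 and 4646 CPM in those of day 12, a log2 fold change of 7.54 (SE 1.72) and an adjusted p of 0.0160. All 3 day 12 libraries lay far above day 9, and library 1 of day 12 alone stood well above the other 2. The call was lost without day 9 libraries 1, 2 and 3 or day 12 library 1 (adjusted p between 0.0509 and 0.0900), with a log2 fold change of 5.96 without day 12 library 1. MEP1B (ENSSSCG00000003732) encodes the beta subunit of meprin, a metalloprotease of cell surfaces and secretions. It went from 2.03, 1.63 and 1.14 CPM to 687, 52.6 and 928 CPM, with a log2 fold change of 8.43 (SE 2.03) and an adjusted p of 0.0219. Day 12 library 2 was the lowest of its day, still above every day 9 library, and the call was lost without day 9 libraries 1, 2 and 3 or day 12 library 3 (adjusted p between 0.0658 and 0.114), with a log2 fold change of 7.85 in the last of these. PGC (ENSSSCG00000001625), the precursor of the aspartic protease gastricsin, had 1 count on day 9 over all 3 libraries and 182, 32 and 505 counts on day 12, which gives a ratio of 654 with a 95% counting interval of 117 to 25860. Its adjusted p was 0.00464, and its fitted log2 fold change of 8.92 became 7.63 without day 12 library 3. Without day 9 library 1 the day 9 group held 0 counts, so the fitted 10.88 there has no measured size. AGR2 (ENSSSCG00000015363), a disulphide isomerase of cells that secrete mucin, rose from 8.53, 24.9 and 7.32 CPM to 116, 33.1 and 661 CPM, with a log2 fold change of 4.31 (SE 1.13) and an adjusted p of 0.0336. The highest value by far was that of day 12 library 3, and library 2 of that day was close to day 9 library 2. Its call was lost without day 9 libraries 1, 2 and 3 or day 12 library 3 (adjusted p between 0.0816 and 0.251), and its log2 fold change was 2.46 without day 12 library 3 and 5.08 without day 9 library 2. SMOC1, a secreted calcium-binding protein of basement membranes, went from 3.84, 1.53 and 10.5 CPM to 158, 51.0 and 129 CPM (log2 fold change 4.41, adjusted p 0.00809). It lost its call without day 9 libraries 1 and 2 (adjusted p between 0.0548 and 0.0591), and its log2 fold change was 5.39 without day 9 library 3.

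Other called genes that rose encode a cytokine, a receptor or other signalling proteins, while receptors given further below fell. Interleukin 1 alpha, IL1A (ENSSSCG00000008090), a cytokine of epithelia, had 0.107, 0.204 and 0.619 CPM on day 9 and 24.7, 13.8 and 14.4 CPM on day 12, with a log2 fold change of 5.77 (SE 0.93) and an adjusted p of 0.00141. The 3 libraries of day 12 all lay far above day 9, and the log2 fold change was 5.38 to 6.71 when each library was left out in turn, the highest without day 9 library 3. GPR83 (ENSSSCG00000022490), a G protein-coupled receptor, went from 0.533, 0.204 and 1.75 CPM to 91.4, 44.4 and 31.5 CPM, with a log2 fold change of 6.05 (SE 0.91) and an adjusted p of 0.000823. Here day 9 library 3 was the highest of its day, and the log2 fold change without it was 7.21. NOS1 (ENSSSCG00000009856), a nitric oxide synthase, had 9.92, 3.98 and 31.5 CPM on day 9 and 440.4, 67.7 and 788 CPM on day 12, with a log2 fold change of 4.84 (SE 0.90) and an adjusted p of 0.00448. Its highest day 9 library, library 3, was still below the lowest of day 12, library 2, and its log2 fold change was 5.96 without day 9 library 3 and 4.07 without day 12 library 3. Connective tissue growth factor, CCN2 (ENSSSCG00000004192), a matricellular protein, rose from 289, 252 and 431 CPM to 2192, 967 and 3232 CPM, with a log2 fold change of 2.72 (SE 0.50) and an adjusted p of 0.00413. IER3, an early response gene, was at 1.39, 1.43 and 1.24 CPM and then 26.0, 7.77 and 79.0 CPM (log2 fold change 4.79, adjusted p 0.0337). Its call was lost without day 9 libraries 1, 2 and 3 or day 12 libraries 1 and 3 (adjusted p between 0.0512 and 0.164), and its log2 fold change was 3.64 without day 12 library 3.

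Some called genes that rose act at membranes, although the transport list as a whole, given below, had a median near 0. SLC7A9 (ENSSSCG00000022948) encodes the light subunit of the exchanger that takes up cystine and dibasic amino acids. It had 0, 0 and 1 counts on day 9 and 749, 270 and 903 counts on day 12, a ratio of 1748 with a 95% counting interval of 313 to 69070, and its adjusted p was 0.00181. All day 12 libraries were far above day 9, with a fitted log2 fold change of 10.32. Without day 9 library 3 the day 9 group held 0 counts, so the fitted 12.28 there has no measured size. ATP6V1C2 (ENSSSCG00000008634), a subunit of the proton pump that acidifies vesicles and secretions, went from 7.79, 4.80 and 33.6 CPM to 557, 225 and 436 CPM, with a log2 fold change of 4.72 (SE 0.89) and an adjusted p of 0.00474. Day 9 library 3 was the highest of its day, and the log2 fold change without it was 6.01. FXYD3 (ENSSSCG00000024666), a small regulator of the sodium pump, rose from 0.853, 0.918 and 2.17 CPM to 20.03, 7.67 and 51.6 CPM, with a log2 fold change of 4.32 (SE 0.85) and an adjusted p of 0.00645. It was highest in day 12 library 3, without which its log2 fold change was 3.39, and its call was lost without day 9 library 2 (adjusted p 0.0536). ANXA13, a calcium-dependent membrane-binding annexin of epithelia, went from 3.09, 1.43 and 1.55 CPM to 72.4, 25.7 and 121 CPM (log2 fold change 5.17, adjusted p 0.00855), and lost its call without day 9 library 2 (adjusted p 0.0643).

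**Figure D2:**
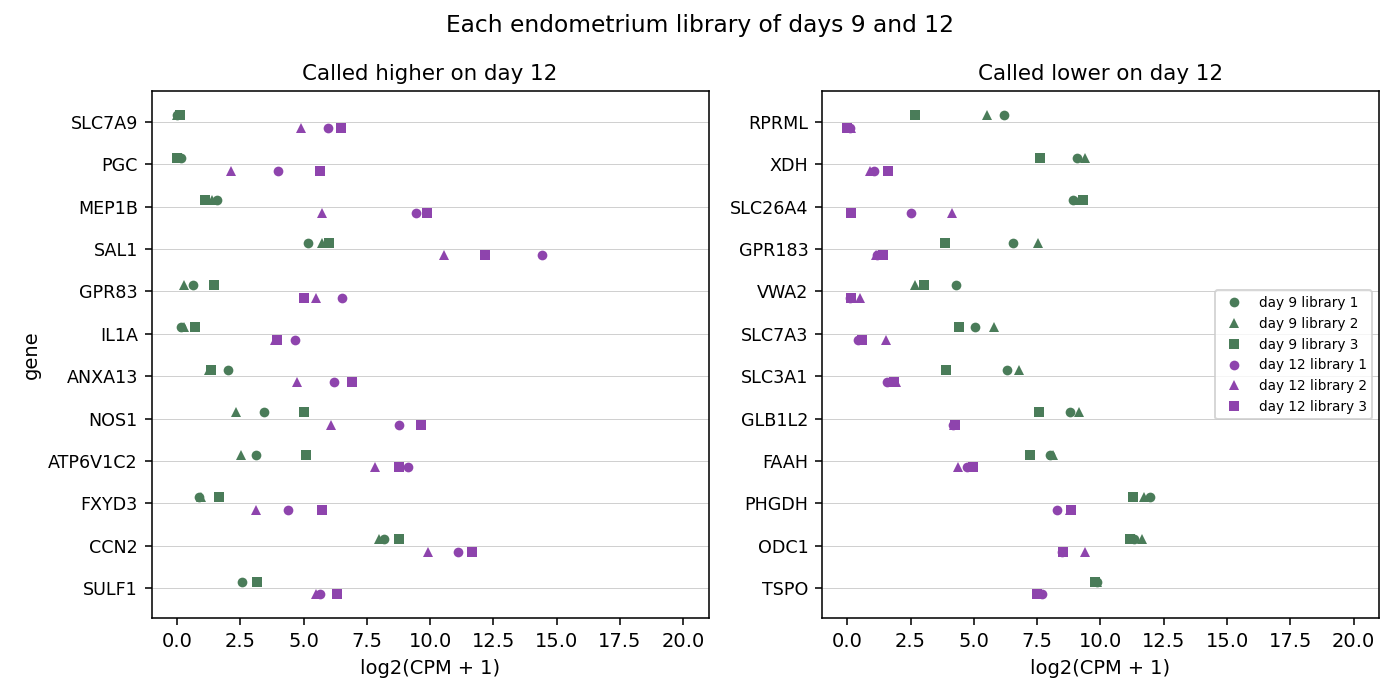
Each row is a gene, and the horizontal axis is log2(CPM + 1) in each of the 6 endometrium libraries, green for day 9 and purple for day 12, with a symbol for each library number. The left panel shows 12 genes called higher on day 12 and the right panel 12 called lower, and in all of them the libraries of the 2 days do not overlap.

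A minority of the matrix genes passed the test. List members that could not be paired with a symbol could not be tested, here and in the lists below. The gene list of the extracellular matrix and its enzymes had 29 members tested, of which 3 rose (10.3%, against 2.43% of all genes tested) and 0 fell. DESeq2 called 6 higher and 0 lower, and 11 were higher and 0 lower at an unadjusted p under 0.05 (37.9%, against 19.5% of all genes tested). Its median log2 fold change was 0.54 against 0.00316 over all genes tested. Leaving out 1 library put this median between 0.26 without day 12 library 3 and 0.69 without day 12 library 2, and DESeq2's size factors gave 0.55. In 8 of the 29 every day 12 library lay above every day 9 library (13.3% of all genes tested). In 1, TNC, every day 12 library lay below (12.3% of all genes tested). COL3A1 (ENSSSCG00000016034), a fibrillar collagen, had 3477, 4374 and 8077 CPM on day 9 and 10960, 11440 and 14380 CPM on day 12, with a log2 fold change of 1.21 (SE 0.25) and an adjusted p of 0.00855. Its call was lost without day 9 libraries 1 and 2 (adjusted p between 0.0548 and 0.0678). The fibrillar collagen gene COL1A2 (ENSSSCG00000015326) went from 771, 902 and 1569 CPM to 1869, 1942 and 2448 CPM (log2 fold change 0.95, adjusted p 0.0159), and SPARC, a collagen-binding matricellular protein, from 107, 134 and 185 CPM to 232, 252 and 351 CPM (0.97, 0.0142). In all 3 genes day 9 library 3 was the highest of its day and day 12 library 3 the highest of day 12. COL1A2 lost its call without day 9 libraries 1 and 2 or day 12 library 3 (adjusted p between 0.0870 and 0.107), and SPARC without day 9 libraries 1 and 2 or day 12 library 3 (adjusted p between 0.0800 and 0.0910).

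The sulphatase SULF1 (ENSSSCG00000006197), which trims heparan sulphate on cell surfaces, gave one of the smallest adjusted p of the rises. It had 5.01, 7.96 and 7.94 CPM on day 9 and 49.5, 44.0 and 78.6 CPM on day 12, with a log2 fold change of 3.04 (SE 0.34) and an adjusted p of 8.96e-05. CAVIN3, a coat protein of caveolae, rose from 41.6, 32.3 and 45.7 CPM to 232, 139 and 439 CPM (log2 fold change 2.76, adjusted p 0.000231), and caldesmon gene CALD1, an actin-binding protein, from 143, 149.5 and 191 CPM to 423, 317 and 595 CPM (1.46, 0.000328). In these 3 genes both days kept apart in every library and the call held without each of the 6 libraries in turn. TMEM35A, a chaperone of acetylcholine receptors, behaved alike, with 4.59, 4.90 and 3.82 CPM on day 9 and 24.5, 23.1 and 40.0 CPM on day 12 (2.72, 8.96e-05). Of the 7 smooth muscle markers tested, 1 rose (14.3%, against 2.43% of all genes tested), DESeq2 called 1 higher, and 2 were higher and 1 lower at an unadjusted p under 0.05 (42.9%, against 19.5%). The 1 that rose, MYH11, smooth muscle myosin, went from 23.7, 29.1 and 22.9 CPM to 74.4, 45.6 and 114 CPM, with a log2 fold change of 1.63 (SE 0.44) and an adjusted p of 0.0408, and it lost its call without day 9 libraries 1, 2 and 3 or day 12 libraries 1 and 3 (adjusted p between 0.0740 and 0.1998). The median over the 7 was 0.86, and 0.43 without day 12 library 3, the library with the highest summed level of these markers.

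Some of the called genes that fell encode transporters. Of 226 tested genes with a symbol of the solute carrier family, looked at after the values were seen, 12 rose and 13 fell (11.1% called, against 4.8% of all genes tested), with a median of -0.01. Other symbol families were looked at in the same way, so this share is not particular to solute carriers. It was 18.8% of 16 CYP genes, 10.9% of 110 TMEM genes and 0% of 13 KRT genes. Pendrin, SLC26A4 (ENSSSCG00000028969), exchanges chloride for bicarbonate or iodide. It had 478, 563 and 639.6 CPM on day 9 and 4.70, 16.4 and 0.0978 CPM on day 12, with a log2 fold change of -6.32 (SE 1.14) and an adjusted p of 0.00368. The day 9 libraries were alike, those of day 12 ranged widely below them, and the log2 fold change without day 12 library 2 was -7.82. SLC3A1 (ENSSSCG00000008449) encodes the heavy subunit that pairs with SLC7A9 in the cystine and dibasic amino acid exchanger. It fell from 79.2, 108 and 13.9 CPM to 1.98, 2.77 and 2.64 CPM, with a log2 fold change of -4.77 (SE 0.67) and an adjusted p of 0.000540, and so moved opposite to its partner. The cationic amino acid transporter SLC7A3 (ENSSSCG00000024346) went from 32.1, 53.9 and 20.3 CPM to 0.330, 1.92 and 0.489 CPM, with a log2 fold change of -5.31 (SE 0.69) and an adjusted p of 0.000328, and its log2 fold change was -6.42 without day 12 library 2. SLC19A2 (ENSSSCG00000006290), which carries thiamine, fell from 161, 152 and 139 CPM to 52.5, 51.0 and 45.1 CPM, with a log2 fold change of -1.60 (SE 0.16) and an adjusted p of 2.44e-05. Its libraries were close together within each day, and its log2 fold change was -1.66 to -1.54 when each library was left out in turn. TMEM63C, of a family of mechanosensitive channels, went from 59.8, 77.8 and 21.1 CPM to 2.80, 2.02 and 2.05 CPM (log2 fold change -4.51, adjusted p 0.000328).

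Genes for enzymes of amino acid and polyamine metabolism given here were picked from the falls after the values were seen, and such genes were not counted. PHGDH (ENSSSCG00000006717), which commits glycolytic carbon to serine synthesis, had 4014, 3399 and 2506 CPM on day 9 and 309, 447 and 451 CPM on day 12, with a log2 fold change of -3.04 (SE 0.50) and an adjusted p of 0.00170. Ornithine decarboxylase, ODC1 (ENSSSCG00000027121), the rate-limiting enzyme of polyamine synthesis, fell from 2560, 3188 and 2278 CPM to 356, 668 and 363 CPM, with a log2 fold change of -2.53 (SE 0.53) and an adjusted p of 0.00971. Its call was lost without day 12 library 3 (adjusted p 0.0658). Mitochondrial arginase, ARG2 (ENSSSCG00000002294), which makes ornithine from arginine, went from 182, 262 and 119.7 CPM to 46.3, 56.9 and 55.9 CPM, with a log2 fold change of -1.83 (SE 0.29) and an adjusted p of 0.00142. OAT, which converts ornithine to a precursor of glutamate and proline, went from 1733, 2139 and 1508 CPM to 405, 521 and 453 CPM (log2 fold change -1.96, adjusted p 0.0344). It lost its call without any 1 of the 6 libraries, at an adjusted p of 0.0517 to 0.129. In all 4 genes every day 12 library lay below every day 9 library.

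Single genes that act on purines, steroids, retinoids or lipids were also called lower, whereas the list of steroid and cholesterol metabolism, given below, had 1 of 20 called. CYP7A1, which the study groups under steroid biosynthesis, was called higher. It went from 2.35, 1.63 and 3.61 CPM to 31.8, 7.24 and 19.95 CPM (log2 fold change 2.96, adjusted p 0.0277). CYP7A1 was not among the genes whose call held without each of the 6 libraries in turn. Xanthine dehydrogenase, XDH (ENSSSCG00000008522), an enzyme of purine breakdown that makes urate, had 540.3, 669 and 194 CPM on day 9 and 1.07, 0.852 and 2.05 CPM on day 12, with a log2 fold change of -8.45 (SE 1.53) and an adjusted p of 0.00382. Day 12 libraries had 13, 8 and 21 counts, low but above the limit of 3, and the call held without each of the 6 libraries. CYP26A1 (ENSSSCG00000010475), which breaks down retinoic acid, went from 792, 858 and 505 CPM to 19.95, 29.8 and 63.2 CPM, with a log2 fold change of -4.26 (SE 1.05) and an adjusted p of 0.0240, and lost its call without day 9 libraries 1 and 2 or day 12 libraries 1, 2 and 3 (adjusted p between 0.0590 and 0.1001), with a log2 fold change of -4.85 in the last of these. The cholesterol-binding protein of the outer mitochondrial membrane, TSPO (ENSSSCG00000000033), fell from 934, 937 and 881 CPM to 204, 179 and 180 CPM, with a log2 fold change of -2.29 (SE 0.37) and an adjusted p of 0.00155, and its log2 fold change was -2.34 to -2.26 when each library was left out. SULT2B1 (ENSSSCG00000023280), a sulphotransferase of cholesterol and hydroxysteroids, went from 36.5, 47.8 and 6.19 CPM to 0.907, 0.745 and 2.45 CPM, with a log2 fold change of -4.46 (SE 0.67) and an adjusted p of 0.000898, and the log2 fold change was -5.16 without day 12 library 3. FAAH, which degrades the endocannabinoid anandamide, fell from 259, 282 and 146 CPM to 25.6, 19.8 and 30.0 CPM (log2 fold change -3.18, adjusted p 0.000131). GLB1L2, a relative of beta-galactosidase, went from 438, 575 and 192 CPM to 16.9, 17.5 and 18.2 CPM (-4.52, 0.000707).

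Receptors and surface proteins were also among the falls. The oxysterol receptor GPR183 (ENSSSCG00000009517) had 92.8, 185 and 13.41 CPM on day 9 and 1.24, 1.17 and 1.66 CPM on day 12, with a log2 fold change of -6.15 (SE 0.76) and an adjusted p of 0.000199, and the log2 fold change was -5.28 without day 9 library 2. Day 9 library 3 was far below the other 2 of its day but above all of day 12. The relaxin receptor RXFP1 (ENSSSCG00000008875) went from 118, 129 and 99.1 CPM to 17.9, 19.0 and 15.7 CPM, with a log2 fold change of -2.72 (SE 0.35) and an adjusted p of 0.000328. Its libraries of each day were close together, and its log2 fold change was -2.82 to -2.64 when each library was left out. Kidney-type cadherin CDH16 fell from 101, 149 and 175 CPM to 7.25, 6.49 and 8.02 CPM (log2 fold change -4.29, adjusted p 0.00525) and tetraspanin CD9 from 262, 183 and 166 CPM to 53.8, 76.7 and 75.0 CPM (-1.57, 8.96e-05). The kinase gene MAST2 went from 898, 965 and 521 CPM to 66.7, 123 and 74.2 CPM (-3.18, 8.96e-05). VWA2, a secreted protein of basement membranes, fell from 18.6, 5.31 and 7.22 CPM to 0.0824, 0.426 and 0.0978 CPM (-5.67, 0.000707), with a log2 fold change of -4.95 without day 9 library 1 and -6.68 without day 12 library 2. CILP2, a cartilage matrix protein, fell from 71.6, 60.8 and 137 CPM to 1.15, 10.01 and 1.27 CPM (-4.46, 0.00971). Its log2 fold change was -6.20 without day 12 library 2, and its call was lost without day 12 library 3 (adjusted p 0.0600). RPRML (ENSSSCG00000017320), a relative of the cell cycle inhibitor reprimo, had 684, 435 and 53 counts on day 9 and 1, 1 and 0 on day 12, a ratio of 644 with a 95% counting interval of 178 to 5327 and an adjusted p of 0.00433, and its log2 fold change was -8.39 without day 9 library 1.

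The 2 nuclear receptors of the ovarian steroids that were tested, PGR and ESR1, were not called, and ESR2 was not among the genes tested. The progesterone receptor PGR (ENSSSCG00000014977) had 25.7, 29.5 and 19.1 CPM on day 9 and 18.6, 26.8 and 18.5 CPM on day 12, with a log2 fold change of -0.22 (SE 0.29) and an adjusted p of 0.734, and the days overlapped. The oestrogen receptor ESR1 (ENSSSCG00000025777) was at 725, 771 and 593 CPM and 782, 738 and 588 CPM, with a log2 fold change of 0.01 (SE 0.26) and an adjusted p of 0.986, and overlapped as well. Of the 19 receptors and partners tested, edgeR called 0, DESeq2 called 1 higher and 1 lower, and at an unadjusted p under 0.05 edgeR had 1 higher and 2 lower (15.8%). Over all 15341 genes tested, DESeq2 called 660 higher and 627 lower, and edgeR had 1586 higher and 1405 lower at an unadjusted p under 0.05 (19.5%), which is the background for such counts in every list. The median of the list was 0.01 against 0.00316 over all genes tested. In 5 of the 19 the libraries of the days did not overlap (25.5% of all genes tested), 1 above and 4 below. The 1 above was FOXO1, a transcription factor that works with the progesterone receptor. It was at 76.6, 77.3 and 88.8 CPM on day 9 and 206, 139 and 301 CPM on day 12 (adjusted p 0.0674). The 4 below were NCOA2, GATA2, NRIP1 and PGRMC2, which had the smallest adjusted p of the list (0.0627).

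In prostaglandin synthesis, transport and reception, edgeR called 0 of 15 genes tested, DESeq2 called 1 higher and 1 lower, and 2 were higher and 3 lower at an unadjusted p under 0.05 (33.3%, against 19.5% of all genes tested). The list named 23 genes, and those without a paired symbol, among them PTGFR and AKR1B1, were not looked at. The median was -0.07, and leaving out 1 library put it between -0.30 without day 12 library 3 and 0.08 without day 12 library 1. PTGS2 (ENSSSCG00000015579), the inducible cyclooxygenase, had 32.3, 18.3 and 18.6 CPM on day 9 and 72.8, 20.8 and 292 CPM on day 12, with a log2 fold change of 2.48 (SE 0.91) and an adjusted p of 0.131. Its day 12 libraries were far apart, with library 2 inside the range of day 9 and library 3 the highest, and its log2 fold change was 1.02 without day 12 library 3 and 2.98 without day 12 library 2. In 7 of the 15 the libraries of the days did not overlap (25.5% of all genes tested), 3 above and 4 below, although none passed the test. SLCO2A1, a prostaglandin transporter with the smallest adjusted p of the list, had 2.99, 4.29 and 3.09 CPM and then 5.03, 7.13 and 21.5 CPM (adjusted p 0.0691), and the receptor gene PTGER2 had 23.6, 12.7 and 14.9 CPM and then 51.9, 25.9 and 49.1 CPM (0.378). On the lower side, PTGES, a prostaglandin E synthase, had 139, 133 and 153 CPM and then 52.2, 49.0 and 59.7 CPM (adjusted p 0.0978), and HPGD, which inactivates prostaglandins, had 290.2, 364 and 293 CPM and then 74.4, 88.7 and 61.8 CPM (adjusted p 0.222).

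Uterine secretions and growth factors had 18 members tested of 37 listed. Of the 18, 2 rose, SAL1 and IL1A, and 0 fell (11.1% called, against 4.8% of all genes tested), with a median of 0.15 that was -0.00427 without day 12 library 1 and 0.36 without day 12 library 2. At an unadjusted p under 0.05, 4 were higher and 2 lower (33.3%), and DESeq2 called 4 higher and 1 lower. RBP4, the retinol carrier of histotroph, had 54.2, 29.8 and 21.4 CPM on day 9 and 242, 22.4 and 1348 CPM on day 12, an adjusted p of 0.0797. Its day 12 library 2 lay among the day 9 values and the other 2 far above them. Osteopontin, SPP1, an adhesion protein of the uterine surface, had 41.7, 35.2 and 42.4 CPM and then 11.2, 6.71 and 15.4 CPM, with no overlap and an adjusted p of 0.249. Among 21 genes of ion, water and nutrient transport, FXYD3 rose and 0 fell (4.76% called, against 4.8% of all genes tested), with a median of -0.03 that lay between -0.18 without day 12 library 3 and 0.11 without day 12 library 2. At an unadjusted p under 0.05, 5 were higher and 3 lower (38.1%), and DESeq2 called 2 each way. The sodium channel subunit SCNN1A had 735, 727 and 724 CPM on day 9 and 241, 259 and 359 CPM on day 12 (adjusted p 0.0892), and the chloride channel CFTR had 106, 120.3 and 94.9 CPM and 39.2, 63.1 and 34.3 CPM (0.0819). On the higher side the exchanger SLC24A4 had 39.5, 46.0 and 136 CPM and 268, 210.2 and 293 CPM (0.235). In 8 of the 21 the libraries of the days did not overlap (25.5% of all genes tested), 4 above and 4 below, and of these FXYD3 alone passed the test.

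The cell cycle list had 20 members tested and edgeR and DESeq2 each called 0 of them, with 0 higher and 1 lower at an unadjusted p under 0.05 (5%, against 19.5% of all genes tested). Its median was -0.54, 2 of the 20 values were positive, and leaving out 1 library put the median between -0.96 without day 12 library 3 and -0.32 without day 9 library 2, while DESeq2's size factors gave -0.53. CCNB1, a mitotic cyclin, had 20.1, 37.6 and 8.77 CPM on day 9 and 3.13, 6.81 and 8.12 CPM on day 12 (adjusted p 0.211). Among 20 genes of steroid and cholesterol metabolism, 1 fell and 0 rose (5% called, against 4.8% of all genes tested), with a median of -0.32 that lay between -0.52 without day 12 library 3 and -0.18 without day 12 library 1. At an unadjusted p under 0.05, 0 were higher and 3 lower (15%), and DESeq2 called 0 higher and 1 lower. The gene that fell, HSD17B4, a peroxisomal enzyme of fatty acid oxidation, went from 66.4, 71.1 and 82.8 CPM to 51.3, 53.1 and 45.2 CPM (log2 fold change -0.56, adjusted p 0.0364) and lost its call without day 9 libraries 1, 2 and 3 or day 12 libraries 1 and 3 (adjusted p between 0.0594 and 0.149). In the Wnt and hedgehog list 1 of 17 genes rose and 0 fell by edgeR (5.88% called, against 4.8% of all genes tested), with 3 higher and 2 lower at an unadjusted p under 0.05 (29.4%) and 1 each way by DESeq2. It was the morphogen BMP4, at 13.5, 10.5 and 16.9 CPM and then 24.5, 20.9 and 21.9 CPM (0.72, 0.0375), and its call was lost without day 9 libraries 1 and 2 or day 12 libraries 1 and 3 (adjusted p between 0.0932 and 0.214).

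Of 15 genes of the interferon response and antigen presentation, 1 rose and 1 fell (13.3% called, against 4.8% of all genes tested), with a median of -0.19 that lay between -0.33 without day 9 library 3 and 0.03 without day 9 library 1. DESeq2 called 1 each way, and 1 was higher and 3 lower at an unadjusted p under 0.05 (26.7%, against 19.5% of all genes tested). In 9 of the 15 the libraries of the days did not overlap, 3 above and 6 below (25.5% of all genes tested had no overlap). IFIT2 (ENSSSCG00000010451), an interferon-induced protein that binds RNA, went from 177, 187 and 145 CPM to 28.6, 37.1 and 30.2 CPM, with a log2 fold change of -2.41 (SE 0.47) and an adjusted p of 0.00628. Its libraries were close together within each day, and its log2 fold change was -2.53 to -2.32 when each library was left out. IRF1, a transcription factor that drives interferon-responsive genes, rose from 35.8, 29.2 and 29.8 CPM to 64.8, 44.7 and 78.7 CPM (log2 fold change 0.99, adjusted p 0.0191), and lost its call without day 9 libraries 2 and 3 or day 12 libraries 1 and 3 (adjusted p between 0.0548 and 0.111). RIGI, a sensor of viral RNA, which was not on the list, fell from 266, 299.7 and 263 CPM to 50.6, 64.4 and 35.1 CPM (-2.46, 0.0101) and lost its call without day 12 library 3 (adjusted p 0.0705). The antiviral GTPase MX1 had 334, 257 and 178 CPM on day 9 and 134, 123 and 113 CPM on day 12, without overlap, at an adjusted p of 0.182.

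The other marker lists held few calls. Stroma had 1 of 6 called (16.7%, against 4.8% of all genes tested), COL3A1, with a median of 0.38 that ran from 0.21 without day 12 library 3 to 0.52 without day 9 library 3. DESeq2 called 2 stromal markers higher, and 2 were higher at an unadjusted p under 0.05 (33.3%, against 19.5% of all genes tested). By edgeR 0 were called of 7 epithelial, 6 ciliated epithelial, 4 endothelial, 5 leucocyte, 7 T and NK cell, 3 B and plasma cell, 5 macrophage and granulocyte and 2 erythrocyte markers, or of the 1 oviduct-type marker tested. DESeq2 also called 0 of each of these. At an unadjusted p under 0.05, 1 epithelial marker was higher and 1 lower, 1 endothelial marker and 1 T and NK cell marker were higher, and the ciliated epithelial, leucocyte, B and plasma cell, macrophage, erythrocyte and oviduct-type lists had 0. Leaving out 1 library moved the medians of these short lists. The epithelial median of 0.48 ran from 0.35 without day 12 library 3 to 0.60 without day 9 library 3, and the ciliated one of -0.03 from -0.33 without day 9 library 3 to 0.21 without day 9 library 1. The endothelial median of 0.44 was -0.13 without day 12 library 3, whose endothelial markers summed to 570 CPM against 225 and 243 CPM in day 12 libraries 1 and 2. The leucocyte median of 0.31 ran from 0.19 without day 12 library 3 to 0.53 without day 12 library 2, and the T and NK cell median of 0.51 from 0.30 to 0.60 without the same libraries. The 2 erythrocyte markers tested had a median of 0.89, and 0.40 without day 12 library 3, with sums over the list of 84.5, 41.6 and 57.8 CPM on day 9 and 67.4, 99.4 and 188 CPM on day 12. Across ciliated epithelial markers the libraries of both days overlapped in all 6 genes, with sums of 340, 320 and 149.7 CPM on day 9 and 326, 174 and 290.2 CPM on day 12. They did not overlap in 4 of 7 epithelial markers, 3 above and 1 below (25.5% of all genes tested). Every day 12 library lay above in 3 of 5 leucocyte, 2 of 6 stromal and 2 of 7 T and NK cell markers (13.3% of all genes tested). The same held for 1 of 4 endothelial and 1 of 5 macrophage and granulocyte markers.

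Calls of named genes were also lost under alternatives other than leaving out 1 library, and the adjusted p is given in brackets. In a fit of only the 2 days these were NOS1 (0.0514), IRF1 (0.0640), ENSSSCG00000004839 (0.0700), AGR2 (0.0820), SPARC (0.0863), HSD17B4 (0.0929), COL3A1 (0.124), BMP4 (0.139) and COL1A2 (0.145). With no filter they were MYH11 (0.0567), AGR2 (0.0592), IER3 (0.0597), ENSSSCG00000005756 (0.0602), BMP4 (0.0604) and ENSSSCG00000004839 (0.0730), and with a replicate block AGR2 (0.0505) and ENSSSCG00000004839 (0.0657). Without day 9 library 3 and day 12 library 2 together the call was lost by AGR2 (0.0523), ENSSSCG00000021334 (0.0549), MEP1B (0.0549), MYH11 (0.0582), IER3 (0.0610), ENSSSCG00000005756 (0.0680), OAT (0.0765), CYP26A1 (0.0809) and HSD17B4 (0.146). A test against a 1.5-fold change did not call CYP26A1 (0.0585), ENSSSCG00000005756 (0.0843), IER3 (0.0851), AGR2 (0.0856), ENSSSCG00000004839 (0.106), COL3A1 (0.116), OAT (0.136), MYH11 (0.182), SPARC (0.305), IRF1 (0.319), COL1A2 (0.341), BMP4 (0.871) and HSD17B4 (1). DESeq2's Wald test gave no adjusted p for ENSSSCG00000014631. Of the 61 named genes, 37 kept their side of the threshold under all 14 alternatives.

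**Figure D3:**
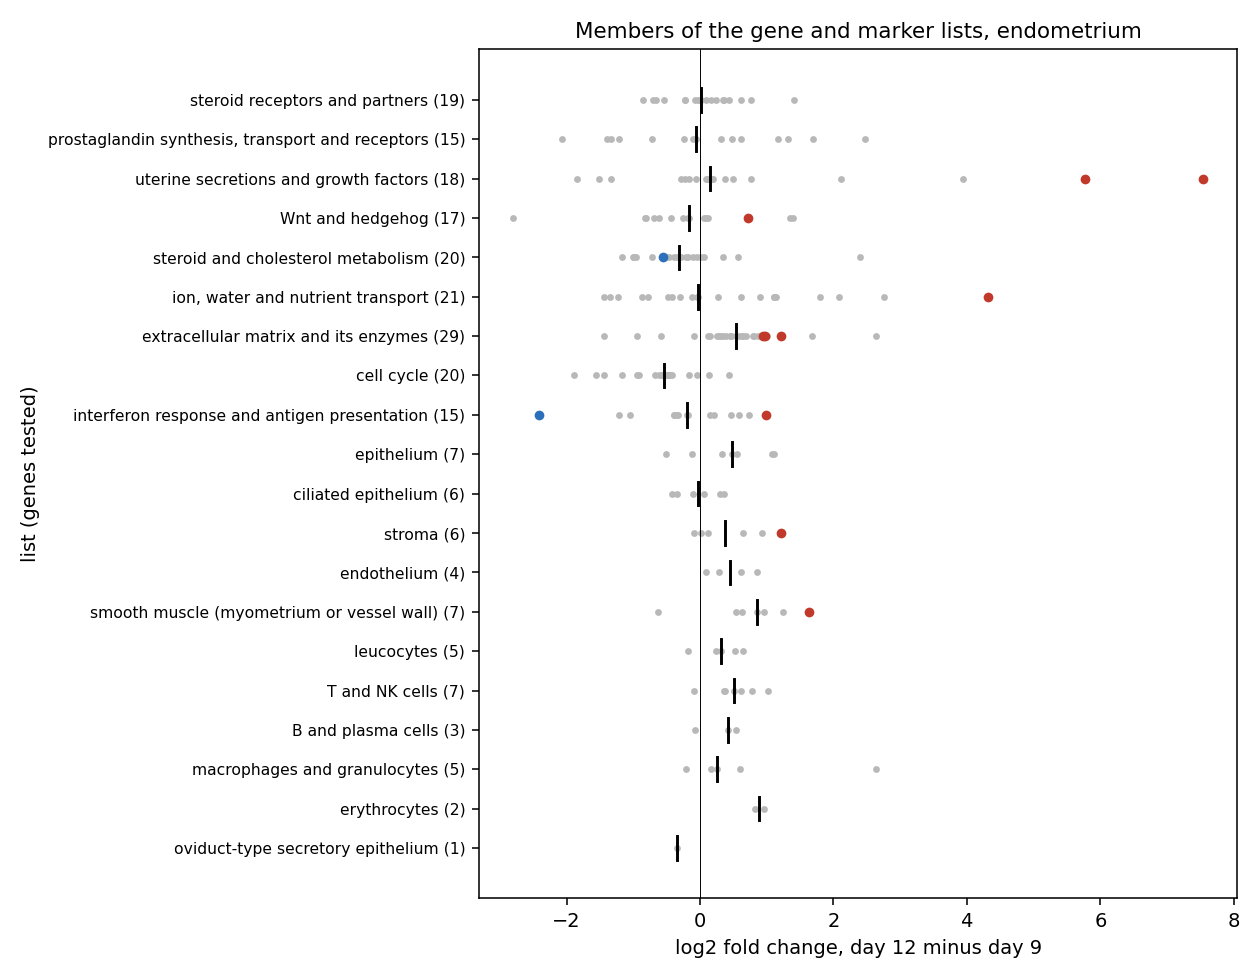
Each point is a member of a gene or marker list, placed on the horizontal axis by its log2 fold change in the endometrium, day 12 minus day 9, with the number of genes tested beside the name of each list. Red points were called higher, blue points were called lower, grey points did not pass the test, and the black bars are the medians of the lists.

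Some genes passed from undetected to detected or the reverse. In 14 genes every day 9 library had at most 3 counts and every day 12 library at least 10, and 12 of these were called. ENSSSCG00000021334, which has no symbol, had 0 counts on day 9 and 847, 165 and 463 counts on day 12, at least 447-fold higher when 3 counts over the day 9 group are taken as the floor. Its adjusted p was 0.0223, and its call was lost without day 9 libraries 1, 2 and 3 or day 12 library 3 (adjusted p between 0.0592 and 0.0933). ENSSSCG00000030074 went from 1, 0 and 3 counts to 164, 157 and 215, with a log2 fold change of 6.83 (SE 0.66) and an adjusted p of 2.44e-05, the smallest adjusted p among the rises, and its log2 fold change was 8.06 without day 9 library 3. In 7 genes the reverse held, and 5 of these were called. ENSSSCG00000023138 went from 138, 58 and 135 counts to 0, 0 and 1, a ratio of 364 with a 95% counting interval of 64.9 to 14420, and its adjusted p was 0.00513. Without day 12 library 3 the day 12 group held 0 counts, so the fitted log2 fold change of -9.91 there has no measured size. ENSSSCG00000011606, also without a symbol, fell from 210.1, 169 and 153 CPM to 5.28, 4.90 and 8.02 CPM, with a log2 fold change of -4.87 (SE 0.53) and an adjusted p of 7.12e-05, and its call held without each of the 6 libraries. The other rises without a symbol that the rule for named genes took were ENSSSCG00000014631, ENSSSCG00000004839, ENSSSCG00000008158 and ENSSSCG00000005756, with log2 fold changes of 6.08, 5.30, 5.25 and 5.23. ENSSSCG00000014631 lost its call without day 9 libraries 1 and 2 (adjusted p between 0.0715 and 0.0775), ENSSSCG00000004839 without day 9 libraries 1 and 2 or day 12 libraries 1 and 3 (adjusted p between 0.0934 and 0.189) and ENSSSCG00000005756 without day 9 libraries 1, 2 and 3 or day 12 libraries 1 and 3 (adjusted p between 0.0570 and 0.138). Without day 9 library 3 the log2 fold changes of the first 3 were 6.77, 7.78 and 7.24. ENSSSCG00000004839 was at 4.35 without day 12 library 1, and ENSSSCG00000005756 at 4.41 without day 12 library 3.

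The rest of the cycle places these genes in time. Of the 373 genes called higher on day 12, 196 (52.5%) had their highest daily mean of log2(CPM + 1) on day 12, 88 (23.6%) peaked on day 15 and 37 (9.92%) on day 0, and day 9 was the lowest day for 155 (41.6%) and day 6 for 137 (36.7%). Over all genes tested, day 12 was the highest for 14.9%. The 364 genes called lower were highest on day 9 in 219 cases (60.2%) and on day 6 in 113 (31%), against 14.2% and 16% of all genes tested. The selection itself fixes which of days 9 and 12 was higher, and only the place of the other days is free. Averaged over the genes called lower, the mean log2(CPM + 1) was 4.13, 4.32, 5.45 and 5.74 on days 0, 3, 6 and 9, and 4.11, 4.17 and 4.18 on days 12, 15 and 18. Averaged over those called higher it was 4.95, 4.71, 4.21 and 4.23 on days 0, 3, 6 and 9, and 5.71, 5.58 and 5.23 on days 12, 15 and 18, so that days 6 and 9 were the lowest.

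**Figure D4:**
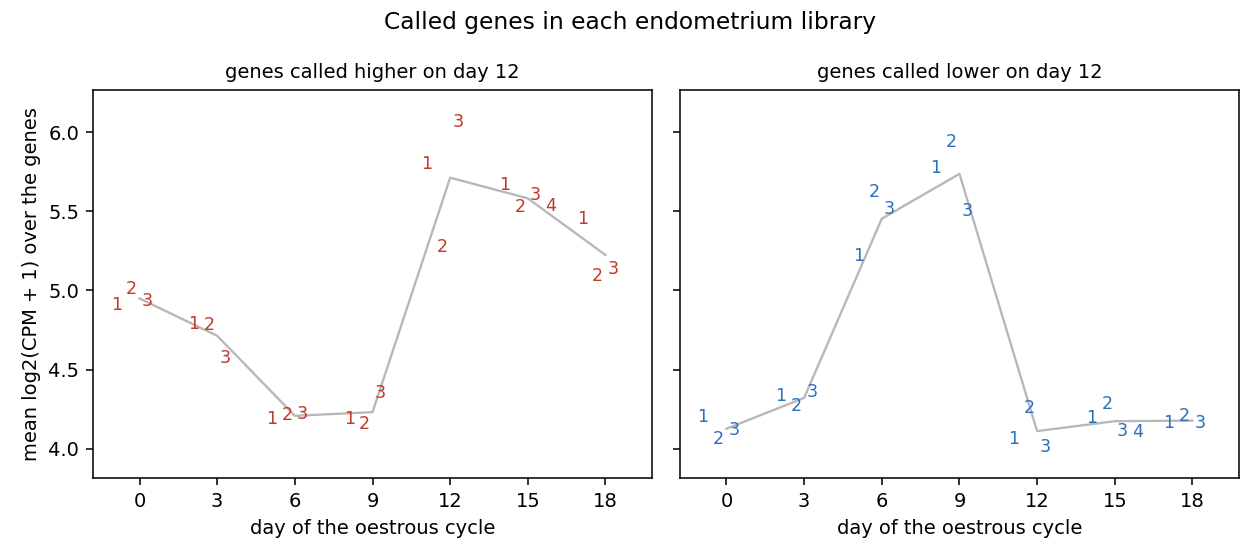
The vertical axis is the mean log2(CPM + 1) over the 373 genes called higher (left) and the 364 called lower (right) on day 12, and the horizontal axis is the day of the cycle, with each digit an endometrium library and the line through the daily means. The higher set is lowest on days 6 and 9 and the lower set is highest on those days. Among the day 12 libraries, library 2 lies nearest to day 9 in both panels.

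Libraries of other days, which share the fit but no library with the comparison, were read for the same genes. Between day 6 and day 15, 28.4% of all genes tested were called, 15.1% as higher on day 15 and 13.3% as lower. Of the genes called higher on day 12, 268 of 373 (71.8%) were higher on day 15 than day 6 and 0 were lower, with a median log2 fold change of 1.09. Of the genes called lower, 235 of 364 (64.6%) were lower on day 15 and 2 were higher, with a median of -1.05. Without day 15 library 2 these numbers were 254 and 1 for the higher set and 5 higher and 246 lower for the lower set, with 18.8% of all genes tested higher and 19.8% lower in that fit. Between day 0 and day 6, where 8.9% of all genes tested were higher on day 6 and 8.79% lower, 144 of the 373 (38.6%) were lower on day 6 and 10 higher. In the lower set, 222 of 364 (61%) were higher on day 6 than on day 0 and 6 were lower.

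Single genes followed different courses. IL1A had daily means of 5.20, 4.77, 0.561 and 0.31 CPM on days 0, 3, 6 and 9, and 17.6, 43.3 and 42.7 CPM on days 12, 15 and 18, so that it stayed high to the end of the cycle. SAL1 had its highest daily mean on day 12, with values of 15.8, 50.2, 9319, 2442 and 59.5 CPM on days 6, 9, 12, 15 and 18. Its day 15 libraries were far apart, at 1621, 8014, 122.9 and 12.1 CPM, the highest being library 2. SLC7A9 was not low before day 9 throughout, with 43.2, 15.7 and 0.752 CPM in the day 6 libraries, and its adjusted p between day 6 and day 15 was 0.724. RXFP1 had its lowest daily mean on day 12, 17.5 CPM, and was at 56.1 CPM on day 15 and 91.2 CPM on day 18. CYP26A1 was at 0.0934 and 0.278 CPM on days 0 and 3, at 425 and 719 CPM on days 6 and 9, at 37.7 CPM on day 12 and at 0.231 CPM on day 18. CDH16 was high on day 9 alone among the daily means, 142 CPM, with the other days between 2.42 and 11.8 CPM. PGR had its higher daily means before day 9, with values of 75.4, 57.4, 50.5, 24.8 and 21.3 CPM on days 0, 3, 6, 9 and 12. Its means on days 15 and 18 were 20.1 and 33.5 CPM. PTGS2 had means of 23.1, 129, 559 and 641 CPM on days 9, 12, 15 and 18, and its log2 fold change between day 6 and day 15 was 5.18 with an adjusted p of 0.0013.

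**Figure D5:**
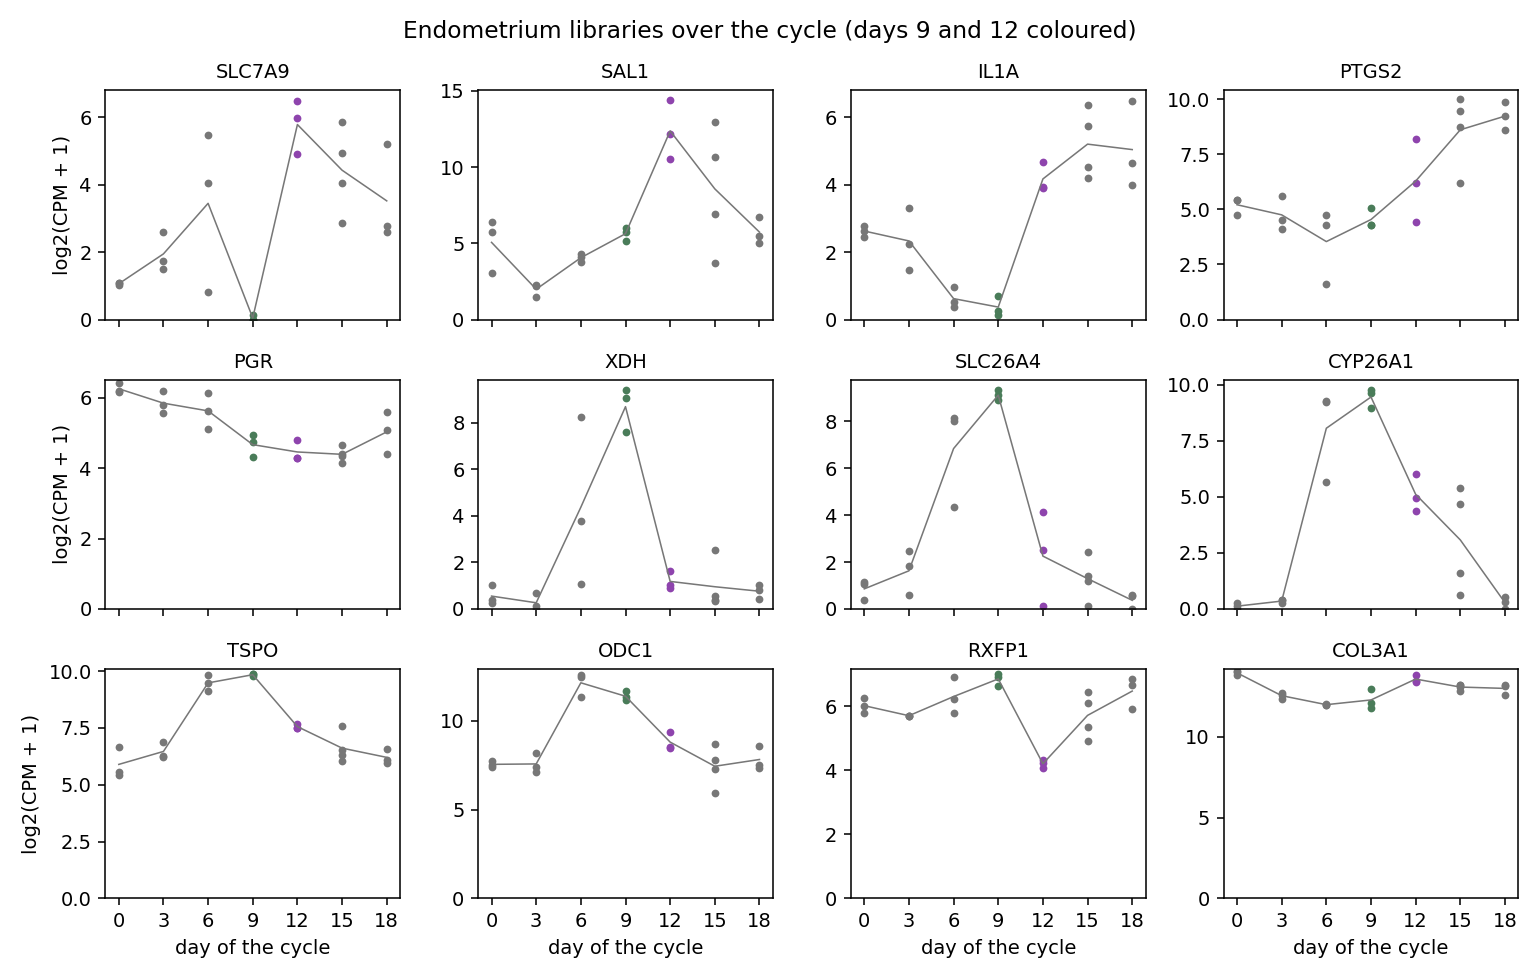
Each panel shows a gene, with log2(CPM + 1) on the vertical axis, the day of the cycle on the horizontal axis, a point for each endometrium library (green for day 9, purple for day 12, grey for other days) and a line through the daily means. SLC7A9, SAL1, IL1A and COL3A1 are higher on day 12 than day 9, XDH, SLC26A4, CYP26A1, TSPO, ODC1 and RXFP1 are lower, and PGR and PTGS2 overlap between these days.

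The change from day 9 to day 12 was compared with that in the oviduct and the ovary on the same days through an interaction of tissue and day. In the oviduct comparison 335 of 15189 genes (2.21%) differed in their change, 192 (1.26%) with a higher and 143 (0.941%) with a lower change in the endometrium. In the ovary comparison 61 of 15161 (0.402%) differed, 23 (0.152%) higher and 38 (0.251%) lower. The study took the tissues from the same gilts, and these fits do not pair them, since the labels do not tie libraries to gilts. A replicate block by library number gave 225 for the oviduct and 55 for the ovary. Such a block joins libraries of both tissues and both days by number, so it does not pair tissues within a gilt. The fits share the 6 endometrium libraries with the comparison of days, so they are no separate evidence that a gene changed. Leaving out 1 library put the counts between 136 without endometrium day 9 library 2 and 723 without endometrium day 12 library 2 for the oviduct, and between 12 without endometrium day 9 library 2 and 480 without ovary day 12 library 1 for the ovary. IL1A changed by 5.56 more on the log2 scale than in the oviduct (adjusted p 0.00172) and by 6.34 more than in the ovary (0.0255). IFIT2 changed by -1.89 against the oviduct (0.00279) and by -2.58 against the ovary (0.012). ODC1 differed by -2.51 from the oviduct (0.00186) and by -2.28 from the ovary (0.0222). SULF1 differed by 3.34 from the oviduct (0.00589) and by 3.74 from the ovary (0.00174). SLC26A4 had 0.385, 0 and 8.45 CPM in the oviduct on day 9 and 0 in all 4 libraries of day 12, so its change there rests on 1 library, and the interaction was 1.66 (SE 4.02) with an adjusted p of 0.884. PHGDH differed by -3.45 from the ovary (0.00354), while against the oviduct the difference was -1.02 with an adjusted p of 0.651.

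The comparison rests on 3 libraries a day, and how many genes are called depends on which libraries are in it. Animals of the 2 days may differ in more than the day. The files hold no hormone levels, processing dates or RNA quality value for a library, although the study states that RNA integrity was checked on a gel. The mitochondrial share differed between the days, and its part in the values was not tested. A gene that was not called has not been shown to be equal. Of the 737 called genes, 222 have no symbol and could not be placed by name.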

How the data were processed

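The authors deposited a table of gene counts, and the unit is counts per gene and library. The study trimmed the reads and mapped them to the Sscrofa10.2 assembly. Members and lists were chosen with earlier results of these data known. edgeR 4.0.16 in R 4.3.3 was run on all 22 endometrium libraries with day as the factor, with TMM normalisation, filterByExpr, robust quasi-likelihood fits and Benjamini-Hochberg adjustment, and a gene was called at an adjusted p under 0.05. Interactions of tissue and day were fitted with the oviduct or ovary libraries. Named genes were the 12 largest log2 fold changes each way with an adjusted p under 0.05, libraries of the days kept apart, and 50 or more counts throughout the higher day, with the list members that passed the test and fixed genes. Other genes were named after the values were seen. Alternatives were DESeq2 1.42.0 and its size factors, no filter, a replicate block, a threshold of 1.5-fold, only the 2 days, and each library left out. 2 further ones were chosen after seeing the data. The code was tested on simulated data. Symbols came from a separate reference table.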

Additional observations from a re-analysis of the deposited data

Results flagged for a closer look

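Among the 71 groups of 4 libraries looked at, most of them the day 15 CPM of a named gene, 14 had a library apart by Dixon's test. A chance rate of about 1 in 20 holds for independent groups of normally distributed values. Most of these groups reuse the same 4 libraries, so the count cannot be set against that rate. 13 of the 14 were day 15 library 2 of the endometrium. Its CPM was the highest of the day for ENSSSCG00000021334 (93.8), ENSSSCG00000014631 (38.2), GPR83 (66.6), ENSSSCG00000004839 (75.0), ENSSSCG00000008158 (29.4), ANXA13 (49.2), XDH (4.73), TMEM63C (3.497), CILP2 (4.25), IFIT2 (63.3), HSD17B4 (59.6) and TMEM35A (29.7). For MAST2 it was the lowest, 38.3 CPM. For ENSSSCG00000030074 it was day 15 library 1 that stood highest, at 20.5 CPM.

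The change from day 9 to day 12 differed from that in the oviduct for 34 of the 61 named genes, by an adjusted p under 0.05 for the interaction of tissue and day, against 335 of 15189 genes tested (2.21%). Most of these genes were picked for large endometrial changes in the same libraries, so the share is no measure of how often tissues differ. The difference on the log2 scale was positive for SLC7A9 (12.11), SAL1 (8.30), ENSSSCG00000030074 (7.02), ENSSSCG00000014631 (5.61), GPR83 (5.94), IL1A (5.56), ANXA13 (5.36), FXYD3 (5.34), NOS1 (4.35), IER3 (4.54), ATP6V1C2 (5.20), PGC (9.63), CCN2 (3.93), SULF1 (3.34), TMEM35A (3.07) and CAVIN3 (3.03). It was negative for ENSSSCG00000023138 (-7.25), GPR183 (-4.76), SLC7A3 (-5.47), SLC3A1 (-4.52), GLB1L2 (-4.42), TMEM63C (-4.45), CILP2 (-5.07), IFIT2 (-1.89), SULT2B1 (-3.72), TSPO (-1.55), ODC1 (-2.51), OAT (-1.93), ARG2 (-1.83), RIGI (-2.32), SLC19A2 (-1.33), MAST2 (-2.47), CD9 (-1.64) and FAAH (-2.95).

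Against the ovary the same test found 18 of the 61, picked in the same way, against 61 of 15161 genes tested (0.402%), a count that lay between 12 and 480 when 1 library was left out. Positive differences were those of MEP1B (9.44), GPR83 (6.86), IL1A (6.34), ANXA13 (4.66), SULF1 (3.74) and CAVIN3 (2.85), and negative ones those of XDH (-9.90), ENSSSCG00000011606 (-4.11), GLB1L2 (-5.00), IFIT2 (-2.58), TSPO (-2.46), ODC1 (-2.28), OAT (-1.99), PHGDH (-3.45), RIGI (-2.77), SLC19A2 (-2.14), MAST2 (-2.73) and FAAH (-3.71). XDH had at most 0.626 CPM in any ovary library of these days and 0 in 4 of them, and GPR83 was too low in the ovary to be tested there alone. Other genes were low in the second tissue, under 3 CPM in every library there, and for all of these the size of the difference is uncertain. In the ovary they were MEP1B (0.105 to 0.87 CPM), IL1A (0.103 to 1.6), ANXA13 (0.319 to 0.949) and ENSSSCG00000011606 (0.211 to 1.22). In the oviduct they were SLC7A9 (0.0909 to 1.31), IL1A (0.866 to 2.09), ENSSSCG00000023138 (0.182 to 2.16), SLC7A3 (0.365 to 1.45), SLC3A1 (0.0909 to 1.98), TMEM63C (0.397 to 2.2) and PGC (0.496 to 1.88).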

How the results depend on the processing

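Of 737 called genes, a 1.5-fold threshold left 208 (87 higher, 121 lower). DESeq2's Wald test called 1287 (660 higher, 627 lower), with 908 differing from the oviduct and 393 from the ovary. A fit of only the 2 days called 502 (226 higher, 276 lower) and 2147 between days 6 and 15. Size factors gave 753 (378, 375) and no filter 594 (285, 309). A replicate block by library number, which the labels do not tie to gilts, gave 740 (370, 370), with 225 differing from the oviduct and 55 from the ovary. Leaving out 1 library in turn gave 210 to 1044 called, 73 to 539 higher, 137 to 505 lower, 1555 to 2277 between days 0 and 6, 136 to 723 differing from the oviduct and 12 to 480 from the ovary. 2 alternatives were chosen after seeing the data. Without day 15 library 2, 1230 were called (642 higher, 588 lower), and without day 9 library 3 and day 12 library 2, 728.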

Other observations

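Further genes kept their call without each of the 6 libraries, and were chosen after the values were seen. The vesicle zinc transporter SLC30A3 rose from 4.37, 4.29 and 4.23 CPM on day 9 to 50.3, 33.4 and 98.0 CPM on day 12 (log2 fold change 3.81). Angiotensin-converting enzyme, ACE, rose from 44.4, 41.7 and 41.7 CPM to 205, 83.8 and 272 CPM, and the growth factor receptor FGFR3 from 10.6, 12.8 and 14.2 CPM to 49.7, 30.5 and 54.1 CPM (1.84). Malate dehydrogenase MDH1 rose from 41.6, 45.2 and 51.6 CPM to 156, 116 and 148 CPM (1.60). In all 4, every day 12 library was above every day 9 library.

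Among the falls, the ion transporter SLC4A11 went from 172, 159 and 84.1 CPM to 19.7, 15.2 and 31.3 CPM (log2 fold change -2.65), and the metalloreductase STEAP4 from 273, 338 and 223 CPM to 21.8, 15.5 and 37.2 CPM (-3.48). UNC13D, which readies secretory granules for release, fell from 289, 338 and 319.7 CPM to 55.6, 32.1 and 40.7 CPM (-2.88). TNFRSF11A, the receptor RANK, fell from 28.6, 39.5 and 36.6 CPM to 5.11, 7.35 and 9.59 CPM (-2.25). The 3 libraries of day 12 lay below those of day 9 in each of them.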
